A study of Homo sapiens with 9 samples.

Results

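The carriers described here are the proteins that move sugars, organic anions and cations, vitamins, fatty acids, choline, short peptides and nucleosides across membranes. They were taken by symbol, as every protein-coding gene named SLC with the family number 2, 5, 10, 13, 15, 16, 17, 19, 22, 23, 27, 28, 29, 33, 35, 37, 44, 45, 46 or 47 and a letter, or named SLCO and a digit. The rule uses no measured values, but it was chosen with earlier results of these data known. The rule found 169 genes among the 60660 genes counted in OVCAR3, an established human epithelial ovarian cancer cell line. RNA-seq was available from 3 conditions, Control, CTCFL-OE and CTCFL-KD, with 3 libraries in each. *CTCFL*, also called BORIS, is the germline paralog of the DNA-binding factor CTCF. CTCFL-OE cells received 2 µg of the plasmid pCpGfree-vitroHBORIS, which carries the *CTCFL* open reading frame, by transient transfection, and Control cells received a LacZ plasmid of the same backbone. Both were collected after 48 h, and 3 technical replicates were pooled into each biological replicate of every condition. The CTCFL-KD RNA came from knockdown experiments of an earlier publication, so that CTCFL-KD and the experiment it came from cannot be told apart, and both comparisons use the same Control libraries.

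Solute carriers are membrane proteins that let a substrate pass down its gradient or couple its passage to sodium or proton gradients. Those of the plasma membrane set what a cell takes up and releases, and several of them carry antifolates, nucleoside analogs and other drugs into tumor cells. Carriers of the Golgi apparatus, endoplasmic reticulum and lysosome supply the donors for glycan and sulfate addition and return the products of degradation to the cytosol.

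Total counts ranged from 14332622 to 24490080 per library, and the limit for a gene with a count of 0, taken as 3 counts, was 0.117 to 0.271 CPM. Such limits cover counting error only. CPM here is the count divided by the TMM-scaled library size in units of 1000000, and all log2 fold changes come from edgeR's quasi-likelihood fit with Benjamini-Hochberg adjusted p over 17794 genes tested. The targeted gene *CTCFL* had 6, 9 and 10 counts in the Control libraries, against 36, 34 and 72 with CTCFL-OE and 0, 1 and 0 with CTCFL-KD. Mitochondrial genes took 6.16% to 6.52% of the counts in Control, 7.40% to 14.9% in CTCFL-OE and 7.80% to 11.8% in CTCFL-KD. CTCFL-KD replicate 1 stood apart, with a TMM factor of 0.775, and its ratio to the other CTCFL-KD libraries fell with transcript length (Spearman −0.640 across 11057 genes, given as a description). Since these are bulk samples, fewer cells of a type and less RNA per cell cannot be told apart.

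Of the 169 carriers, 102 passed the low-count filter. The other 67 never exceeded 16 counts in a library, 46 of them had at most 3 counts in every library and 12 had none. Among them was *SLC2A3*, the high-affinity glucose carrier of neurons, with 1, 1 and 6 counts in Control, 5, 1 and 1 counts in CTCFL-OE and 0, 0 and 1 count in CTCFL-KD. The filter left 13 of 27 hexose and polyol carriers and 17 of 43 organic ion and drug carriers, against 26 of 35 nucleotide sugar and other organelle carriers. All members of SLC19, SLC23, SLC27, SLC29 and SLC33 passed, whereas 6 of 22 SLC22 genes and 4 of 12 SLC5 genes did. *SLC2A4RG*, a regulator of a glucose carrier gene and not a carrier itself, fits the naming rule and was kept. Classes were formed by family, so it counts in the hexose and polyol class, and the monoamine carrier *SLC29A4* in the nucleoside class. The tested carriers had a median exon length of 5254 bases, against 5364 for the 13697 protein-coding genes tested. Together, the 169 genes took 0.296% to 0.304% of the counts in Control, 0.301% to 0.422% in CTCFL-OE and 0.377% to 0.567% in CTCFL-KD.

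In Control cells, the most abundant carriers per exon length were those of lactate, glucose and choline. TPM, counts per exon length scaled to a sum of 1000000, was 113 ± 3.44 (SD, n = 3) for *SLC16A1*, the monocarboxylate carrier MCT1, and 112 ± 3.05 for *SLC2A1*, the glucose carrier GLUT1, so that the order of these 2 was within their spread. *SLC44A2*, a choline transporter-like protein of the plasma membrane and mitochondria, was at 103 ± 3.56 TPM. *SLC2A4RG* followed at 99.6 ± 5.41 TPM, which overlaps *SLC44A2*. The gene shares exon sequence with the protein-coding gene ENSG00000273047 on the same strand. *SLC35B2*, which brings the active sulfate donor into the Golgi, was at 72.6 ± 2.49 TPM. *SLC10A3*, an orphan relative of the bile acid carriers, *SLC29A2*, an equilibrative nucleoside carrier, and *SLC35A4*, a nucleotide sugar carrier-like protein, lay together at 62.7 ± 2.69, 62.3 ± 3.13 and 61.3 ± 1.40 TPM. The lactate exporter *SLC16A3* was at 50.2 ± 0.99 TPM and the sodium-coupled inositol carrier *SLC5A3* at 43.4 ± 3.73 TPM.

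**Figure D1:**
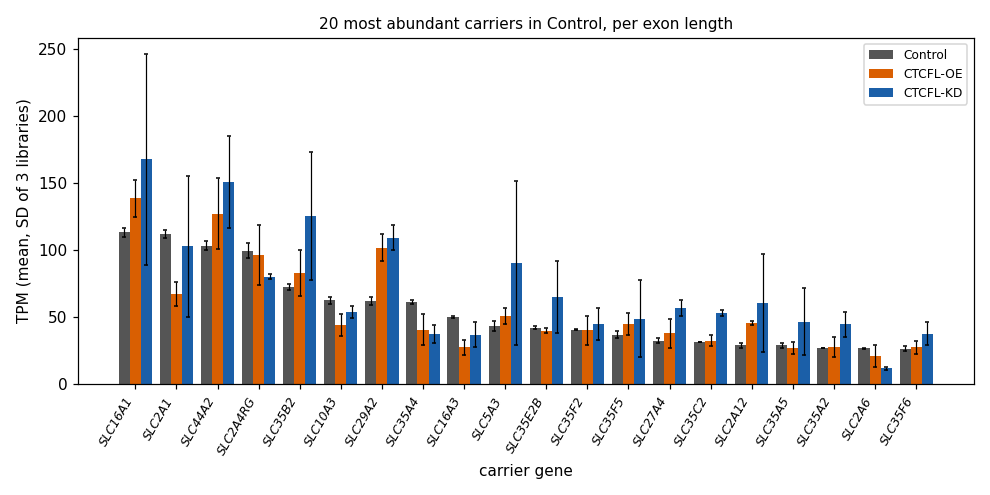
Mean TPM (linear axis from 0, error bars SD of 3 libraries) of the 20 carriers with the highest level in Control, for Control, CTCFL-OE and CTCFL-KD. *SLC16A1*, *SLC2A1* and *SLC44A2* lead in Control at 113, 112 and 103 TPM, and the SD is widest in CTCFL-KD for *SLC16A1*, *SLC5A3* and *SLC2A1*.

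The CTCFL-OE vs Control comparison asked which genes respond when *CTCFL* is raised in cells that already express it. DEGs were genes with an absolute log2 fold change above 1 and an adjusted p below 0.1. Only 2 of the 102 carriers were DEGs, the nucleoside carrier *SLC28A3*, which fell, and the ascorbate carrier relative *SLC23A3*, which rose. Over all genes tested, 2.07% were DEGs (1.37% higher and 0.702% lower), so that the carriers' share of 1.96% was near the background. By the adjusted p alone, 6 carriers passed, 5 higher and 1 lower, against 3.15% of all genes (1.99% higher and 1.16% lower). The fitted change was above 0 in 86 of 102 carriers, against 49.1% of all genes, and the median log2 fold change was 0.40 for the carriers and −0.01 for all genes. The lowest CTCFL-OE library exceeded the highest Control library for 31 carriers (16.3% of all genes), and the reverse held for 6 (20.8% of all genes).

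*SLC28A3* encodes the concentrative nucleoside carrier CNT3, which takes up nucleosides and nucleoside drugs with sodium. The gene (ENSG00000197506.8, chr9:84275457-84340758 in GRCh38, minus strand) was at 2.45, 3.57 and 3.19 CPM in Control and at 1.41, 1.57 and 1.47 CPM in CTCFL-OE. All CTCFL-OE libraries were below all Control libraries, and the CTCFL-OE values were close together. The log2 fold change was −1.05 with an SE of 0.26 and an edgeR adjusted p of 0.0795. In CTCFL-KD the same gene was at 4.60, 6.96 and 7.39 CPM, above every Control library, with a log2 fold change of 1.04, an SE of 0.24 and an adjusted p of 0.00613. The counts behind these values were 24 to 135 per library. The CTCFL-OE call was lost without any 1 of the 3 Control libraries, without CTCFL-OE replicate 2 or 3 and without CTCFL-KD replicate 2, where the log2 fold change ranged from −1.19 to −0.93 over all 9 fits that left out a library. The CTCFL-KD call was lost without Control replicate 1 or CTCFL-KD replicate 2 or 3, over a range of 0.89 to 1.22.

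*SLC23A3* (ENSG00000213901.11, chr2:219161465-219170095, minus strand), an orphan relative of the ascorbate carriers, was at 0.651, 0.661 and 0.557 CPM in Control and at 1.05, 2.19 and 2.77 CPM in CTCFL-OE, from 11 to 45 counts. The groups did not overlap, but CTCFL-OE replicate 1 was well under the other two. Its log2 fold change was 1.65 with an SE of 0.37 and an edgeR adjusted p of 0.0633, and in CTCFL-KD, at 0.902, 1.25 and 0.876 CPM, it was 0.69 (adjusted p = 0.196). The CTCFL-OE call was lost without any 1 Control library and without CTCFL-OE replicate 2 or 3, over a range of 1.35 to 1.97. *SLC23A3* shares exon sequence with the protein-coding gene ENSG00000280537 on the same strand, so that reads of both may have been split or shared in the counting.

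*SLCO3A1*, the organic anion transporting polypeptide OATP3A1, is a carrier of prostaglandins and other organic anions. The gene (ENSG00000176463.14, chr15:91853708-92172435, plus strand) was at 28.7, 27.7 and 28.9 CPM in Control, 46.7, 54.1 and 69.8 CPM in CTCFL-OE and 47.9, 55.4 and 50.7 CPM in CTCFL-KD. Every treated library lay above every Control library, and CTCFL-OE and CTCFL-KD overlapped. In CTCFL-OE its log2 fold change of 0.999 (SE 0.18, edgeR adjusted p = 0.029) lay just under the fold threshold, which makes it the carrier nearest to the threshold from outside, while *SLC28A3* at −1.05 was the nearest inside. *SLCO3A1* was a DEG in 8 of the 19 alternative settings and *SLC28A3* in 10. In CTCFL-KD the log2 fold change of *SLCO3A1* was 0.85 (SE 0.18, adjusted p = 0.00396). The direct difference, CTCFL-KD minus CTCFL-OE, was −0.15 (adjusted p = 0.566).

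Of the remaining 3 carriers past the adjusted p in CTCFL-OE, *SLC2A11*, the glucose and fructose carrier GLUT11, moved from 18.9, 22.4 and 18.2 CPM to 29.2, 44.7 and 43.7 CPM (log2 fold change 0.98, adjusted p = 0.0463). *SLC16A5*, the monocarboxylate carrier MCT6, was at 26.4, 26.2 and 24.2 CPM in Control and at 33.3, 45.3 and 43.4 CPM in CTCFL-OE (0.67, adjusted p = 0.0827). *SLC29A2* was at 58.6, 56.8 and 52.5 CPM in Control and at 82.4, 104 and 137 CPM in CTCFL-OE (0.94, adjusted p = 0.0939). In all 3 the groups did not overlap, and CTCFL-OE replicate 1 was the lowest treated library. *SLC2A11* shares exon sequence with another protein-coding gene, ENSG00000251357, on the same strand.

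**Figure D2:**
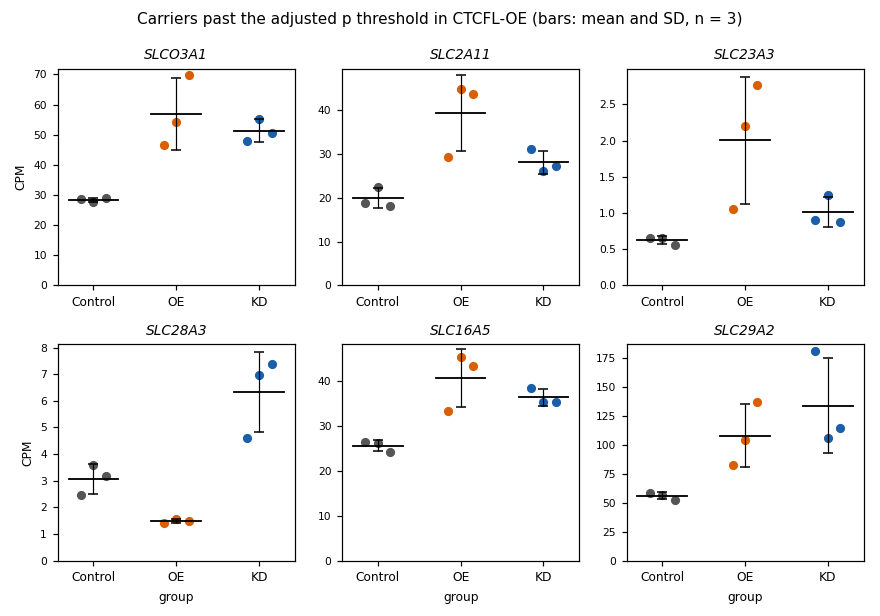
CPM (linear axes from 0) of the 6 carriers past the adjusted p in CTCFL-OE vs Control, 1 point per library, with bars for the mean and SD of 3 libraries (OE, CTCFL-OE; KD, CTCFL-KD). *SLC28A3* is the only panel in which CTCFL-OE lies under Control, at 1.41 to 1.57 against 2.45 to 3.57 CPM.

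The main carriers of lactate and glucose did not pass the adjusted p in CTCFL-OE. *SLC2A1* was at 243, 244 and 246 CPM in Control and 125, 174 and 221 CPM in CTCFL-OE (log2 fold change −0.50, SE 0.25, adjusted p = 0.329). *SLC16A3* was at 155, 148 and 156 CPM in Control and 64.5, 106 and 130 CPM in CTCFL-OE (−0.62, SE 0.27, adjusted p = 0.263). In both, all CTCFL-OE libraries lay below Control. *SLC16A1* lay above Control instead, at 268, 319 and 439 CPM against 242, 227 and 244 CPM (0.53, SE 0.24, adjusted p = 0.277).

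The CTCFL-OE libraries differed among themselves. The median carrier stood 0.03 above the Control mean in replicate 1, 0.29 in replicate 2 and 0.72 in replicate 3, on the scale of log2(CPM + 0.1), while the median over all genes tested stood at −0.02, −0.02 and −0.03. In replicate 1, 37 carriers lay above all Control libraries and 40 below, against 31.6% and 38.3% of all genes. In replicate 2 these counts were 68 and 21 (39.5% and 42.7% of all genes), and in replicate 3 they were 89 and 6 (40.2% and 44.01%). The mitochondrial share of these libraries was 7.40%, 12.4% and 14.9%, and the *CTCFL* level 1.64, 1.78 and 4.42 CPM. The part of either in the carriers' levels was not tested. Without CTCFL-OE replicate 1, 12 carriers were DEGs and the median log2 fold change was 0.56. Without CTCFL-KD replicate 1, 7 of 103 tested were. With any 1 Control library or CTCFL-OE replicate 2 or 3 left out, none was by edgeR, with 12 to 16 carriers at an unadjusted p under 0.05 and medians between 0.15 and 0.44, and DESeq2, which called 4 carriers on all 9 libraries, was not run on these sets.

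The CTCFL-KD vs Control comparison asked which genes change when *CTCFL* is lost. Here 49 of 102 carriers were DEGs (log2 fold change beyond 1, adjusted p under 0.05), 46 higher and 3 lower. Over all genes tested, 23.2% were DEGs, 15.3% higher and 7.94% lower, so that the carriers' share of 48% was above the background and their direction more often up. The class and family counts of CTCFL-KD below are read against the same shares. By the adjusted p alone, 65 rose and 4 fell, against 21.4% and 16.8% of all genes. The median log2 fold change was 0.97 for the carriers, 0.06 for protein-coding genes and 0.08 for all genes tested. All 3 CTCFL-KD libraries lay above all Control libraries in 74 carriers (28.7% of all genes) and below in 6 (27.6%). The median carrier stood 0.74, 0.94 and 0.99 above the Control mean in replicates 1, 2 and 3, and without CTCFL-KD replicate 1 the count was 50 DEGs among 103 tested, 48 of them higher and 42 of them among the 49. Of the 49 DEGs, 36 remained in every fit that left out a library. Across the alternatives, 27 were DEGs in all 19, and *SLC15A3*, *SLC16A12*, *SLC2A13*, *SLC44A5* and *SLCO1A2* in the 18 in which they were tested.

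**Figure D3:**
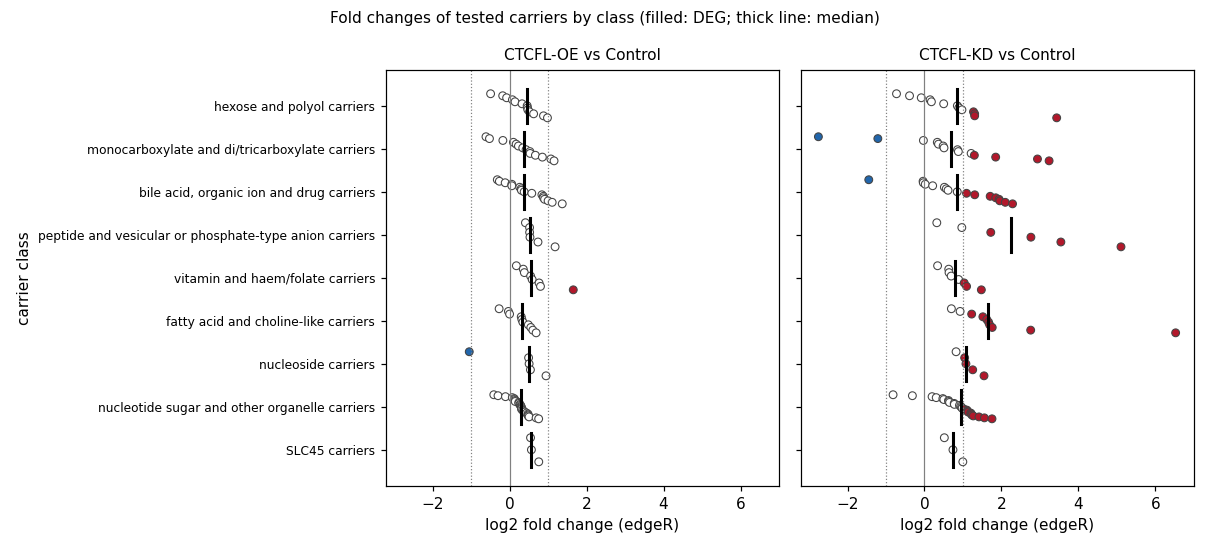
Log2 fold changes of the 102 tested carriers by class, in a panel for each comparison with Control. Points are genes, filled red for DEGs above and blue for DEGs below Control, thick lines are class medians and dotted lines mark the fold threshold. In CTCFL-KD all 9 class medians are above 0, from 0.68 to 2.24, and 3 blue points lie on the left. In CTCFL-OE 1 red and 1 blue point are filled.

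Among the fatty acid and choline-like carriers, all 10 tested genes passed the adjusted p upward in CTCFL-KD and 8 were DEGs, with a median log2 fold change of 1.64. With a library left out, *SLC27A5*, *SLC44A1* and *SLC44A2* did not pass the adjusted p in every fit. All 6 SLC27 genes, which encode fatty acid transport proteins that also activate fatty acids with coenzyme A, were DEGs, and their median was 1.66. The strongest of them was *SLC27A2* (ENSG00000140284.11, chr15:50182196-50236385), the very long-chain enzyme FATP2, at 0.801, 1.28 and 0.962 CPM in Control, 1.28, 1.36 and 2.09 CPM in CTCFL-OE and 8.03, 6.42 and 6.57 CPM in CTCFL-KD. CTCFL-KD stood clear of both other groups, with a log2 fold change of 2.76 (SE 0.27, adjusted p = 4.08e-05). *SLC27A1*, the insulin-responsive FATP1 of muscle and fat, went from 7.81, 6.26 and 6.28 CPM to 31.4, 18.8 and 19.01 CPM (1.76, adjusted p = 0.000668). *SLC27A3* was at 25.8, 22.9 and 23.6 CPM in Control and at 115, 57.6 and 61.8 CPM in CTCFL-KD (1.69, adjusted p = 0.00136), with replicate 1 far above the other libraries. The exons of *SLC27A3* overlap those of *INTS3* on the same strand. The call of *SLC27A5*, the bile acid ligase FATP5, was lost without Control replicate 2 or 3 or CTCFL-KD replicate 1, where its log2 fold change, 1.62 in the full fit, ranged from 0.93 to 1.92 over the fits that left out a library. The other two, *SLC27A4* and *SLC27A6*, had log2 fold changes of 1.23 and 1.52.

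*SLC44A5* had the largest fold change of all carriers. It encodes a choline transporter-like protein and lies at chr1:75202129-75611114 on the minus strand (ENSG00000137968.16). Control libraries held 3, 3 and 4 counts and CTCFL-OE libraries 2, 6 and 3, against 88, 282 and 353 counts in CTCFL-KD, or 7.94, 16.8 and 19.3 CPM. The gene was thus at the edge of detection in Control and CTCFL-OE and plainly detected in all CTCFL-KD libraries. The ratio of summed counts, corrected for library size, was 103 with a 95% counting interval of 55.4 to 215, and the fitted log2 fold change of 6.53 (SE 0.47, adjusted p = 6.73e-06) rests on those few Control counts. *SLC44A3* moved from 2.90, 3.38 and 3.14 CPM to 10.5, 9.63 and 9.91 CPM (1.67, adjusted p = 0.000266). The abundant *SLC44A2* and *SLC44A1*, the ubiquitous choline carrier, rose by less than the fold threshold, by 0.93 (adjusted p = 0.0131) and 0.70 (adjusted p = 0.0352) on the log2 scale. *SLC44A2* did not pass the adjusted p without Control replicate 2 (edgeR adjusted p = 0.0582), nor did *SLC44A1* without any 1 Control library or without CTCFL-KD replicate 2 or 3 (edgeR adjusted p of up to 0.116).

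The peptide carriers of SLC15 rose the furthest as a family. All 4 tested genes, of 5 members, passed the adjusted p upward and 3 were DEGs, with a median log2 fold change of 3.16. *SLC15A2* (ENSG00000163406.11, chr3:121894401-121944188, plus strand), the high-affinity oligopeptide carrier PEPT2, was at 0.952, 0.855 and 0.912 CPM in Control, 1.09, 1.46 and 1.35 CPM in CTCFL-OE and 26.7, 31.6 and 35.7 CPM in CTCFL-KD. The CTCFL-KD libraries were close together and far from the others, a 34.5-fold difference (log2 5.11, SE 0.22, adjusted p = 5.88e-07). *SLC15A1*, the low-affinity PEPT1 of the intestine, was at 0.902, 1.05 and 0.658 CPM in Control and at 8.21, 4.88 and 5.09 CPM in CTCFL-KD (2.77, adjusted p = 5.86e-05). *SLC15A3*, a lysosomal peptide and histidine carrier, held 8, 5 and 4 counts in Control and 54, 44 and 38 in CTCFL-KD (3.54, adjusted p = 0.000213), and shares exon sequence with *TMEM132A* on the opposite strand. Its lysosomal relative *SLC15A4* changed by 0.97 (adjusted p = 0.0114), but did not pass in every fit that left out a library (edgeR adjusted p of up to 0.0524). In the SLC17 family, *SLC17A5*, the lysosomal sialic acid exporter sialin, was at 16.98, 18.2 and 16.8 CPM in Control and at 39.2, 61.2 and 71.0 CPM in CTCFL-KD (1.72, adjusted p = 0.000351).

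Among the monocarboxylate carriers, 4 SLC16 genes rose and 2 fell as DEGs, and the class of 14 tested genes had a median of 0.68. *SLC16A14* (ENSG00000163053.11, chr2:230034982-230068993, minus strand), an orphan member, went from 1.80, 2.18 and 1.87 CPM in Control to 12.7, 21.9 and 20.8 CPM in CTCFL-KD, with 2.42, 3.55 and 2.52 CPM in CTCFL-OE (log2 fold change 3.24, SE 0.27, adjusted p = 1.36e-05). *SLC16A10*, the aromatic amino acid carrier TAT1, was at 0.701, 0.738 and 0.861 CPM in Control and 6.49, 5.29 and 5.97 CPM in CTCFL-KD (2.94, adjusted p = 1.54e-05). In both, the CTCFL-KD libraries stood apart from all others. The pyruvate carrier *SLC16A7* had a log2 fold change of 1.85 (adjusted p = 0.00319) and the orphan *SLC16A13* of 1.30 (adjusted p = 0.00532). Of the abundant lactate carriers, *SLC16A1* was at 322, 469 and 502 CPM in CTCFL-KD (0.86, adjusted p = 0.0156, all above Control), and *SLC16A3* was at 187, 110 and 155 CPM, on both sides of Control (−0.03, adjusted p = 0.943). *SLC16A1* did not pass the adjusted p in every fit that left out a library (edgeR adjusted p of up to 0.0684).

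The 3 carriers that fell as DEGs in CTCFL-KD were 2 of this family and a prostaglandin carrier. *SLC16A12* (ENSG00000152779.14, chr10:89430299-89556641, minus strand), a creatine carrier, held 17, 26 and 27 counts in Control, 12, 14 and 37 counts in CTCFL-OE and 3, 1 and 3 counts in CTCFL-KD. Every CTCFL-KD library was at or under 3 counts and below all Control and CTCFL-OE libraries. The ratio of summed counts, corrected for library size, was 7.05 for Control over CTCFL-KD with a 95% counting interval of 3.25 to 18.2, and the fitted log2 fold change was −2.76 (SE 0.71, adjusted p = 0.0111). *SLCO2A1* (ENSG00000174640.15, chr3:133932701-134052184), which takes up prostaglandins, was at 6.01, 6.22 and 5.87 CPM in Control, 2.92, 5.38 and 6.27 CPM in CTCFL-OE and 2.44, 2.20 and 2.03 CPM in CTCFL-KD (−1.45, SE 0.28, adjusted p = 0.00253). *SLC16A8*, the lactate carrier MCT3 of the retinal pigment epithelium, was at 2.05, 2.60 and 2.18 CPM in Control and 0.361, 1.19 and 1.26 CPM in CTCFL-KD (−1.21, SE 0.41, adjusted p = 0.0365). This call was lost without any 1 Control library and without CTCFL-KD replicate 1 or 2, over a range of −1.46 to −0.90.

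**Figure D4:**
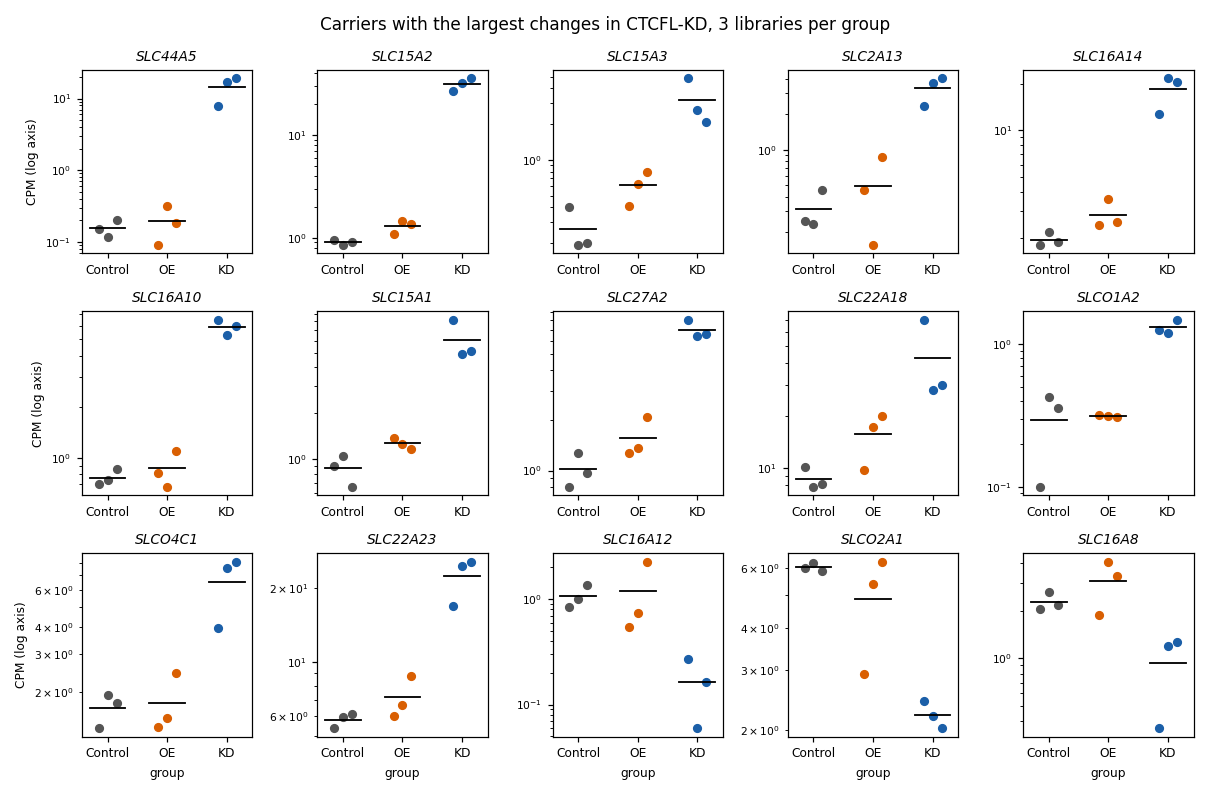
CPM (log axes, each panel with its own range) of the 12 carriers with the highest and the 3 with the lowest fold change among CTCFL-KD DEGs, 1 point per library, with a line at the group mean (OE, CTCFL-OE; KD, CTCFL-KD). *SLC44A5* goes from under 0.21 CPM in Control to 7.94 to 19.3 CPM in CTCFL-KD, and *SLC16A12*, *SLCO2A1* and *SLC16A8* lie below Control in every CTCFL-KD library.

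The organic ion and drug carriers held 8 DEGs that rose and *SLCO2A1* among 17 tested genes, with a median of 0.85. *SLC22A18* (ENSG00000110628.16, chr11:2899721-2925246, plus strand), an imprinted gene, was at 10.2, 7.85 and 8.10 CPM in Control, 9.81, 17.1 and 20.0 CPM in CTCFL-OE and 70.5, 28.1 and 29.7 CPM in CTCFL-KD (log2 fold change 2.29, SE 0.38, adjusted p = 0.00103). CTCFL-KD replicate 1 was far above the rest, and without it the log2 fold change was 1.73, the lowest of the fits that left out a library. The bile salt and drug carrier *SLCO1A2* held 2, 11 and 7 counts in Control and 14, 20 and 27 in CTCFL-KD (2.10, adjusted p = 0.00238). *SLCO4C1*, a kidney carrier of digoxin and thyroid hormone, was at 1.35, 1.94 and 1.77 CPM in Control and 3.97, 7.55 and 8.11 CPM in CTCFL-KD (1.96, adjusted p = 0.00102). *SLC22A23*, an orphan, went from 5.36, 5.95 and 6.13 CPM to 16.8, 24.5 and 25.5 CPM (1.94, adjusted p = 0.0001). Each of these 3 lay above Control in all CTCFL-KD libraries. *SLC22A5*, the carnitine carrier OCTN2, changed by 0.61 (adjusted p = 0.0415), with an adjusted p of up to 0.135 across the edgeR and DESeq2 alternatives. The remaining DEGs of the class that rose were *SLC22A17*, a receptor for the iron-binding protein lipocalin (1.85), *SLC22A31* (1.71), *SLCO4A1* (1.31, no DEG without Control replicate 2) and *SLCO5A1* (1.09). *SLCO5A1* was no DEG without Control replicate 1 or 2 or CTCFL-KD replicate 2 or 3, over a range of 0.88 to 1.36. The 4 tested SLC10 genes, the bile acid carrier family, held no call, with adjusted p from 0.296 to 0.999 by edgeR.

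All 3 SLC19 genes rose as DEGs. *SLC19A1*, the reduced folate carrier that also imports methotrexate, was at 37.7, 33.1 and 38.8 CPM in Control, 43.1, 64.9 and 83.1 CPM in CTCFL-OE and 138, 82.6 and 85.4 CPM in CTCFL-KD (log2 fold change 1.48, SE 0.27, adjusted p = 0.00185). The thiamine carriers *SLC19A2* and *SLC19A3* changed by 1.09 (adjusted p = 0.00754) and 1.03 (adjusted p = 0.00545). Neither was stable at the fold threshold, since *SLC19A2* was no DEG without CTCFL-KD replicate 3 (0.91) and *SLC19A3* was none without Control replicate 2 or CTCFL-KD replicate 1 (0.97 at the lowest). The proton-coupled folate carrier *SLC46A1* changed by 0.89 (adjusted p = 0.0156), and none of the 3 SLC23 genes passed the test.

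In the nucleoside carrier class, formed from SLC28 and SLC29, 4 of 5 tested genes were DEGs in CTCFL-KD, with the monoamine carrier *SLC29A4* among them. *SLC29A1*, the equilibrative carrier ENT1, was at 18.9, 19.3 and 18.6 CPM in Control, 20.3, 26.8 and 35.6 CPM in CTCFL-OE and 64.2, 55.1 and 47.1 CPM in CTCFL-KD (log2 fold change 1.55, SE 0.22, adjusted p = 0.000387). *SLC29A2* was at 181, 106 and 115 CPM in CTCFL-KD (1.25, SE 0.25, adjusted p = 0.00285), and without CTCFL-KD replicate 1 its log2 fold change was 0.98, under the threshold. *SLC29A4*, a monoamine carrier, changed by 1.08 (adjusted p = 0.00403) and by 0.81 without CTCFL-KD replicate 1, where it was no DEG. With that library left out, 2 genes of the class were DEGs.

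The hexose and polyol class, formed from SLC2 and SLC5 and so with *SLC2A4RG* in it, held 4 DEGs among 13 tested genes, all higher. Over all genes tested, 15.3% were higher DEGs. The class median was 0.85, and 0.46 without CTCFL-KD replicate 1. *SLC2A13*, the proton-coupled inositol carrier, held 5, 6 and 9 counts in Control, 10, 3 and 14 counts in CTCFL-OE and 26, 62 and 74 counts in CTCFL-KD (log2 fold change 3.44, SE 0.48, adjusted p = 0.000348). *SLC2A12*, the glucose carrier GLUT12, was at 51.2, 56.4 and 53.0 CPM in Control and at 67.7, 167 and 162 CPM in CTCFL-KD (1.30, adjusted p = 0.0063). *SLC2A10* changed by 1.30 as well (adjusted p = 0.00813). *SLC5A3*, the sodium-coupled inositol carrier, was at 153, 170 and 173 CPM in Control and at 164, 472 and 566 CPM in CTCFL-KD (1.27, SE 0.38, adjusted p = 0.0209). Its groups overlapped through CTCFL-KD replicate 1, the call was lost without any 1 Control library and without CTCFL-KD replicate 2 or 3 over a range of 0.94 to 1.65, and its exons overlap those of *MRPS6* on the same strand. *SLC2A1* did not pass the test, at 220, 244 and 365 CPM in CTCFL-KD (0.18, SE 0.25, adjusted p = 0.596).

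The carriers of the Golgi, endoplasmic reticulum and other organelles were the largest class, with 26 tested genes. In CTCFL-KD, 11 were DEGs and all of them rose, while by the adjusted p alone 19 rose and *SLC35G1* fell, and the class median was 0.95. *SLC35A1*, the CMP-sialic acid carrier, was at 5.16, 5.79 and 6.94 CPM in Control, 6.02, 7.16 and 11.8 CPM in CTCFL-OE and 25.7, 17.6 and 17.3 CPM in CTCFL-KD (log2 fold change 1.75, SE 0.28, adjusted p = 0.00075). *SLC35A2*, the UDP-galactose carrier, was at 34.1, 32.4 and 32.97 CPM in Control and at 84.0, 64.7 and 70.1 CPM in CTCFL-KD (1.14, SE 0.26, adjusted p = 0.00653). The sulfate donor carrier *SLC35B2* went from 55.9, 50.1 and 51.8 CPM to 101, 120 and 121 CPM (1.12, adjusted p = 0.00442). *SLC37A4*, which moves phosphorylated glucose into the endoplasmic reticulum, changed by 1.56 (adjusted p = 0.00023), and *SLC33A1*, which imports acetyl-CoA there, by 1.42 (adjusted p = 0.00169). All of these lay above Control in every CTCFL-KD library. With offsets for length and GC content, *SLC35A2*, *SLC35B2* and *SLC35E4* fell short of the fold threshold at 0.95, 0.96 and 0.95, and so did *SLC27A4*, *SLC29A2* and *SLC29A4* at 0.96, 0.96 and 0.90, all 6 still past the adjusted p. *SLC35A4* did not pass the test, at 77.8, 59.4 and 59.9 CPM against 85.6, 78.2 and 81.2 CPM in Control (−0.31, SE 0.18, adjusted p = 0.18). The remaining DEGs, *SLC35B1*, *SLC35C2*, *SLC35E3*, *SLC35E4* and *SLC37A3*, had log2 fold changes between 1.11 and 1.27, of which *SLC35B1* and *SLC35C2* were no DEGs without CTCFL-KD replicate 1 (0.88 and 0.90). Nearest the fold threshold among carriers past the adjusted p, *SLC35B4* lay inside at 1.03 and *SLC45A4* outside at 0.997, and *SLC35B4* was no DEG without Control replicate 1 or CTCFL-KD replicate 3 (0.96 at the lowest). *SLC35A1* shares exon sequence with ENSG00000213204, a protein-coding gene on the same strand, and *SLC35A2* with *PQBP1* on the opposite strand. *SLC33A1* shares exon sequence with the protein-coding gene ENSG00000284952 on the same strand.

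**Figure D5:**
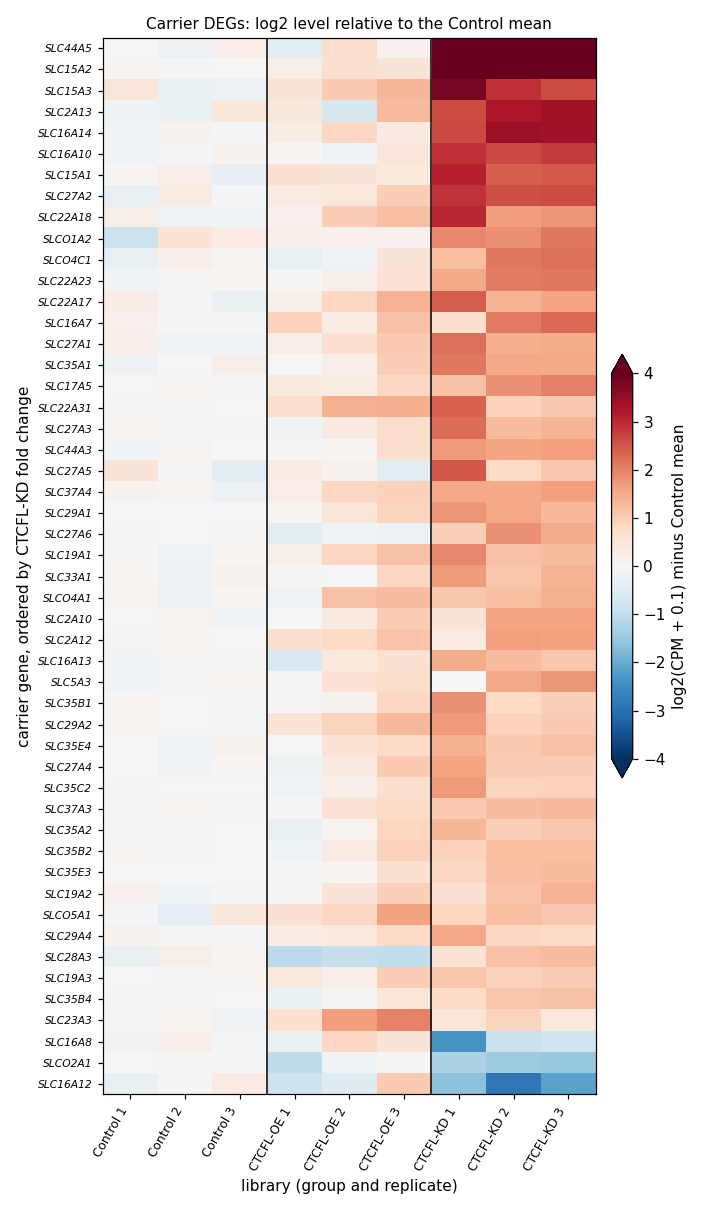
Level of each of the 50 carriers that were DEGs in CTCFL-OE or CTCFL-KD in all 9 libraries, as log2(CPM + 0.1) minus the mean of the Control libraries (color scale limited to −4 to 4, rows ordered by the CTCFL-KD fold change). The CTCFL-KD columns are red in nearly all rows except the last 3, which are blue, *SLC28A3* is blue in the CTCFL-OE columns, and CTCFL-OE replicate 3 is redder than replicate 1 in most rows.

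Promoters are shown for 4 carriers with large changes in CTCFL-KD, chosen after their values were seen: *SLC44A5* and *SLC15A2*, with the highest fold changes, *SLC16A14*, another of the 5 highest, and *SLC16A12*, the DEG with the lowest fold change. Of the carriers, 124 had an entry in the RefSeq promoter table (GRCh38.p14), and for 4 of them the 250 bases before the transcription start are printed 5′ to 3′ on the strand of the gene, at chr1:75611115-75611364 (*SLC44A5*, minus strand), chr3:121894151-121894400 (*SLC15A2*, plus strand), chr2:230068925-230069174 (*SLC16A14*, minus strand) and chr10:89535595-89535844 (*SLC16A12*, minus strand). Capitals mark matches, on either strand, to the TATA box TATAAA or the GC box GGGCGG.
SLC44A5: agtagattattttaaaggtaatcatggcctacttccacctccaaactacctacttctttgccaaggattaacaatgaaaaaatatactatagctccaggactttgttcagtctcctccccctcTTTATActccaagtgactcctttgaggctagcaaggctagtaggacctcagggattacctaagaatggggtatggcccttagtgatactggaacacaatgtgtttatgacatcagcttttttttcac
SLC15A2: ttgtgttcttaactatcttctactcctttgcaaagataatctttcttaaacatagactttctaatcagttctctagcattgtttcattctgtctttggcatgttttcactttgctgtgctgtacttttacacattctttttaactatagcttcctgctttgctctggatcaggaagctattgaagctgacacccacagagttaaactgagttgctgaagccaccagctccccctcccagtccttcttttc
SLC16A14: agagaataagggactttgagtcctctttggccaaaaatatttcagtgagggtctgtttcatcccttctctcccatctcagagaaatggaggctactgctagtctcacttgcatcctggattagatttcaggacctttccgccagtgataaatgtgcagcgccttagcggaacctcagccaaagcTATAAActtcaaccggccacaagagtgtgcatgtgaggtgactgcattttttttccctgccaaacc
SLC16A12: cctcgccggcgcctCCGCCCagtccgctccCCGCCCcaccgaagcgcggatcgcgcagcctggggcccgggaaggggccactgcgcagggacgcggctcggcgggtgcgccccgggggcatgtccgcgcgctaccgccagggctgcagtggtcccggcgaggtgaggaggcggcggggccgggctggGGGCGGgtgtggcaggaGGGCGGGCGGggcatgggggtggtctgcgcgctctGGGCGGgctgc
The 3 promoters of genes that rose had GC contents of 40.8%, 39.6% and 46.8%, against a median of 58% over 27305 promoters and 64% over the carriers' promoters. *SLC16A12*, which fell, had 81.2% and 6 GC boxes, a pair of them overlapping. TATAAA lay 66 to 61 bases before the start of *SLC16A14* and on the opposite strand in *SLC44A5*. The RefSeq starts used for *SLC16A12* and *SLC16A14* lie within the genes as annotated by GENCODE, so that part or all of these windows, the TATAAA of *SLC16A14* included, is inside the annotated gene. GGGCGG was in 54.8% of carrier promoters, in 64.9% of the 37 from carriers that rose in CTCFL-KD and in 42.3% of all promoters, and TATAAA in 11.3%, 5.41% and 11.1%. Such matches are a description of the letters in these windows.

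The direct comparison of CTCFL-KD with CTCFL-OE came from the same fit over all 9 libraries, so that the Control libraries entered the low-count filter, the scaling and the estimate of the spread but not the difference itself. It gave 28 carrier DEGs among 102, 24 higher and 4 lower in CTCFL-KD, against 17% of all genes, 10.6% higher and 6.42% lower. The fitted difference was above 0 in 79 of 102 carriers (52.2% of all genes), and its median was 0.58 for the carriers and 0.04 for all genes. *SLC28A3* differed by 2.09 (SE 0.26, edgeR adjusted p = 0.000223), from 1.41 to 1.57 CPM in CTCFL-OE to 4.60 to 7.39 CPM in CTCFL-KD. *SLC44A5* and *SLC15A2* differed by 6.21 (adjusted p = 1.72e-05) and 4.59 (adjusted p = 1.01e-06), with no overlap of the groups. Carriers with similar levels in both conditions included *SLCO3A1* and *SLC29A2*, whose difference of 0.31 (SE 0.24, adjusted p = 0.369) did not pass the test. *SLC23A3* was −0.96 (SE 0.37, adjusted p = 0.0753). Nearest the fold threshold among carriers past the adjusted p, *SLC29A1* lay inside at 1.01 and *SLC35C2* outside at 0.94. *SLC29A1* was a DEG of this comparison in 7 of 19 alternatives, and it was none without replicate 1 or 2 of either CTCFL-OE or CTCFL-KD (0.83 at the lowest).

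The enzymes and partner proteins that use what the carriers deliver were listed in 7 groups with 91 tested genes, and did not move in 1 direction. In CTCFL-KD, 13 rose and 12 fell as DEGs (15.3% and 7.94% of all genes) with a median log2 fold change of 0.03, and in CTCFL-OE 3 fell and none rose (0.702% and 1.37% of all genes) with a median of −0.08. The per-list counts below are read against the same shares. In the hexose list (14 tested, 3 higher and 3 lower in CTCFL-KD), *TXNIP*, an arrestin that restrains glucose uptake, was lower in both conditions (−1.25, edgeR adjusted p = 0.081 in CTCFL-OE; −3.41, adjusted p = 6.09e-05 in CTCFL-KD). In the lactate list (5 tested, 2 higher), *BSG*, the chaperone that brings MCT1 and MCT4 to the membrane, rose by 1.40 in CTCFL-KD (adjusted p = 0.00943), and *LDHA*, which makes lactate, fell by 1.11 in CTCFL-OE (adjusted p = 0.042). All 3 partner calls in CTCFL-OE, *TXNIP* and *LDHA* among them, were lost without any 1 Control library and without CTCFL-OE replicate 2 or 3, with adjusted p of up to 0.31 for *TXNIP* and 0.225 for *LDHA*. The *BSG* call was lost without CTCFL-KD replicate 1 (0.94). The nucleoside salvage list (16 tested, 1 higher and 3 lower in CTCFL-KD) held *CDA*, which inactivates cytidine analogs, at −2.92 (adjusted p = 0.000194). In the folate, thiamine and ascorbate list (11 tested, 3 higher), the folate receptor *FOLR1* rose by 2.79 (adjusted p = 0.000497). The choline and fatty acid list (14 tested, 4 higher and 1 lower) held the fatty acid binding protein *FABP5* at 3.61 (adjusted p = 3.00e-05). In the list of nucleotide sugar and sulfate donor synthesis (21 tested), no gene rose and 3 fell as DEGs, among them *UGDH*, which makes UDP-glucuronate, at −1.33 (adjusted p = 0.00125), with a list median of −0.13. The conjugation and efflux list (10 tested) held 2 DEGs that fell and none that rose, *ABCC3* at −1.33 (adjusted p = 0.00891) and *ABCG2* at −1.54 (adjusted p = 0.032). *ABCG2* was no DEG without Control replicate 1 or 2 or any 1 CTCFL-KD library (adjusted p of up to 0.105), nor in either fit with offsets.

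Markers of other cell types were read beside the CTCFL-KD result. The epithelial list, which marks ovarian carcinoma cells and fits the labelled cell line, summed to 6267 to 6362 CPM in Control, 5601 to 5873 CPM in CTCFL-OE and 10843 to 18626 CPM in CTCFL-KD, with 8 of 14 tested genes higher and 1, *KRT7*, lower as DEGs (15.3% and 7.94% of all genes). *FOLR1* stands in this list as well. Of 11 fibroblast markers, 4 passed the filter and *COL1A2* and *POSTN* rose in CTCFL-KD, and the list summed to 28.01 to 33.8, 24.99 to 44.2 and 37.8 to 43.0 CPM in the same order of groups. Of the 10 immune markers, 3 were tested and all were DEGs in CTCFL-KD, 2 higher, *CD14* among them, and 1 lower, *CSF1R*. *CD3D* and *MS4A1* were at 0 in every library, and the list summed to 1.202 to 1.83, 1.19 to 2.89 and 2.96 to 4.69 CPM. Of the 6 endothelial markers, 3 were tested, of which *KDR* rose and *PECAM1* fell. That list summed to 8.71 to 9.87, 11.7 to 12.6 and 12.4 to 21.0 CPM. The calls in these 3 short lists are read against the same shares of all genes. The part of these markers in the carriers' changes was not tested. The libraries came from a stranded kit, but the strand setting of the counting is not given in the sources used here, so values of carriers that overlap an antisense gene, such as *SLC16A1*, *SLC16A3*, *SLC19A1*, *SLC22A18*, *SLC22A23*, *SLC27A2*, *SLC28A3* and *SLC2A13*, are uncertain to that extent.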

How the data were processed

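Gene-level counts of 60660 genes in 9 libraries were used as deposited: the authors sequenced stranded mRNA libraries of OVCAR3 cells in paired-end mode and made whole-number, unnormalized counts, and the submitters' processing notes name Trimmomatic, kallisto, featureCounts and GRCh38, while the study's methods name STAR as the aligner. The strand setting, the handling of multi-mapping reads and the release of the annotation are not given in the sources used here. Total counts ranged from 14332622 to 24490080 per library, which sets the precision of low genes. Symbols, positions and exon lengths came from GENCODE 44.

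Low counts were removed with filterByExpr, which left 17794 genes, and edgeR 4.0.16 (R 4.3.3) was fitted with TMM scaling, robust quasi-likelihood dispersion and the condition as the only factor over all 9 libraries. p-values were adjusted by Benjamini-Hochberg over all genes tested. Calls of DEGs required an absolute log2 fold change above 1 together with an adjusted p below 0.1 for CTCFL-OE vs Control, or below 0.05 where CTCFL-KD was compared.

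The named genes were *SLC28A3* and *SLCO3A1*, the DEGs in CTCFL-OE, the carriers that were DEGs in both comparisons with Control, the 12 highest and up to 12 lowest CTCFL-KD DEGs whose libraries did not overlap Control, the 10 highest by TPM in Control, the carriers past the adjusted p nearest to the fold threshold, and the best known carriers of each class. Further genes named as examples of a class were chosen after their values were seen. Some genes of the lists are not reported here by name. The carrier rule, classes, gene lists and tests were chosen with earlier results of these data known.

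Control and CTCFL-KD libraries of the same number deviated together from their group means (correlations 0.403, 0.227 and 0.287 across 11081 genes). These values meet the criterion for pairing by number, a threshold of 0.1, whereas those of Control and CTCFL-OE do not (−0.054, 0.221 and −0.045). Among unlike numbers, CTCFL-KD replicate 2 with Control replicate 3 was at 0.175, CTCFL-KD replicate 3 with Control replicate 2 at 0.086, and the rest were negative. Whether the numbers mark a shared batch was not tested. Alternatives were DESeq2 1.42.0, fits on 2 groups, RLE and upper-quartile scaling, other count filters, a replicate block, length and GC offsets and leaving out each library.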

Additional observations from a re-analysis of the deposited data

Results flagged for a closer look

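*SLC28A3*, the concentrative nucleoside carrier, moved in opposite directions in the 2 conditions, and the difference between them was itself tested. Its log2 fold change was −1.05 in CTCFL-OE vs Control and 1.04 in CTCFL-KD vs Control, and the CTCFL-KD minus CTCFL-OE difference was 2.09 (SE 0.26, edgeR adjusted p = 0.000223). All 3 CTCFL-OE libraries lay below and all 3 CTCFL-KD libraries above the Control libraries. The difference was a DEG in all 19 alternative settings, with values from 1.97 to 2.27. Both single comparisons share the Control libraries and were less stable, the one with CTCFL-OE being a DEG in 10 and the one with CTCFL-KD in 14 of the 19 settings. The exons of *SLC28A3* overlap those of *SLC28A3-AS1* on the opposite strand, which had at most 1 count in any library.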

How the results depend on the processing

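The number of carrier DEGs in CTCFL-KD vs Control (49) stayed between 43 and 51 under all 19 alternatives, and the median log2 fold change of 0.97 was 0.84 with DESeq2 on the 2 groups and 0.79 with no low-count filter. The replicate block changed no carrier DEG call (49 in CTCFL-KD, 2 in CTCFL-OE, 28 in CTCFL-KD vs CTCFL-OE). The CTCFL-OE count was small and moved with the settings. It was 2 in the fit as reported, 4 with DESeq2 on all 9 libraries, at least 10 counts in every library, length and GC offsets or block plus offsets, 7 with edgeR and 6 with DESeq2 on the 2 groups, 5 with no filter, 3 with RLE scaling (2 of them higher) and 3 with upper-quartile scaling (all higher), and 0 to 12 with a library left out. Carriers past the adjusted p alone in CTCFL-OE (6) were 11 with DESeq2 on all 9 libraries, 26 with edgeR and 32 with DESeq2 on the 2 groups, 13 with no filter or with offsets, 16 with block plus offsets and 0 to 35 with a library left out. Partner gene DEGs in CTCFL-OE (3) were 6 with either tool on the 2 groups, DESeq2 on all 9 libraries or no filter, 5 with either set of offsets and 0 to 8 with a library left out. In CTCFL-KD vs CTCFL-OE, carriers past the adjusted p (44) were 28 with edgeR on the 2 groups and 27 to 58 with a library left out, partner DEGs (22) were 14 to 21, and the median (0.58) was 0.44 with no filter and 0.43 to 0.81 with a library left out.

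Among the named carriers, those below changed sign under an alternative, and in the comparison concerned they had not passed the test in the fit as reported. In CTCFL-OE vs Control, with a library left out, *SLC22A5* ranged from −0.236 to 0.060 (above 0 without CTCFL-OE replicate 1), *SLC35A2* from −0.081 to 0.532 (below 0 without CTCFL-OE replicate 3) and *SLC44A1* from −0.302 to 0.090 (above 0 without Control replicate 3 or CTCFL-OE replicate 1 or 2). *SLC44A1* was 0.0087 with edgeR on the 2 groups, 0.016 with upper-quartile scaling, 0.088 with offsets and 0.067 with block plus offsets. In CTCFL-KD vs Control, *SLC10A3* was −0.094 with offsets, −0.0889 with block plus offsets and −0.019 to 0.323 with a library left out (below 0 without CTCFL-KD replicate 1). *SLC2A4RG* was −0.216 and −0.219 under these offsets and −0.168 to 0.282 with a library left out (below 0 without CTCFL-KD replicate 1). *SLC16A3* ranged from −0.209 to 0.162 (above 0 without CTCFL-KD replicate 2) and *SLC2A1* from −0.077 to 0.324 (below 0 without CTCFL-KD replicate 3). *SLCO3A1* in CTCFL-KD vs CTCFL-OE ranged from −0.274 to 0.019 (above 0 without CTCFL-OE replicate 3). The cause was not tested.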

Other observations

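Of 37 noncoding genes and pseudogenes named after these carriers, which were not counted as members, 10 passed the low-count filter and 3 were DEGs, 1 in each comparison, against 2.07% of all genes in CTCFL-OE vs Control, 23.2% in CTCFL-KD vs Control and 17% in CTCFL-KD vs CTCFL-OE. *SLC16A4-AS1* had 36, 57 and 29 counts in Control and 77, 131 and 56 in CTCFL-OE (log2 fold change 1.321, SE 0.30, edgeR adjusted p = 0.0664). *SLC16A1-AS1*, whose exons overlap those of *SLC16A1* on the opposite strand, had 108, 154 and 98 counts in the Control libraries, against 145, 227 and 139 with CTCFL-OE and 20, 63 and 55 with CTCFL-KD, and differed by −1.63 between CTCFL-KD and CTCFL-OE (adjusted p = 0.00232), while *SLC16A1* itself differed by 0.33 (adjusted p = 0.316). *SLCO4A1-AS2* rose by 1.18 in CTCFL-KD (adjusted p = 0.0327), from 10, 5 and 10 counts to 10, 16 and 15. How reads of overlapping genes were assigned is not given in the sources used here.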
